A study of Mus musculus with 4 samples.

Results

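The genes described here are 6 genes of neutrophils and other myeloid cells, S100a8, S100a9, Stfa2l1, Cxcr2, Fpr2 and Trem1, measured in pregnant mice in uterus and in ovary. They were chosen by symbol, with their log2 fold changes already known, from the 1696 genes that the authors listed in either tissue. Ltf and Lcn2, which gland and surface epithelium also make, were left out by the same choice. The study asked how low oxygen around the time of implantation alters both tissues. RNA was sequenced at embryonic day 3.5 from 4 groups: uterus under normal oxygen (normoxia, labelled Ctrl), uterus under low oxygen (hypoxia), and the ovary in each of these conditions. The low-oxygen exposure is placed 72 hours after fertilization, and each group pooled 3 samples into 1 library. No difference described here therefore has a replicate check. The sources used here give neither strain, age nor oxygen levels, and the labels name no altered allele.

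Neutrophils are short-lived white blood cells that leave the blood along gradients of chemokines and bacterial peptides. Mating draws them into the mouse uterus, and most are cleared again before the embryo attaches. S100a8 and S100a9 encode the subunits of calprotectin, a calcium- and zinc-binding protein that fills the neutrophil cytoplasm and is also made by monocytes and by stressed epithelium. Stfa2l1 encodes a stefin A-like protein, of a family that inhibits cysteine cathepsins. Cxcr2 encodes the receptor for the chemokines that call neutrophils out of marrow and blood. Fpr2 encodes a formyl peptide receptor that senses bacterial and host peptides. Trem1 encodes a receptor that amplifies inflammatory signalling in neutrophils and monocytes.

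The stretches of DNA just before the starts of S100a8, S100a9 and Trem1 are shown because the first pair carried the most reads and Trem1 was the gene listed in both tissues. Each run holds the 250 bases before the RefSeq transcript start (GRCm38.p6), 5′ to 3′ on the strand of the gene. They lie at chr3:90668821-90669070 on the plus strand, chr3:90695722-90695971 on the minus strand and chr17:48232489-48232738 on the plus strand. For S100a8, GENCODE places the start of the gene farther upstream, so 93 bases at the end of its window lie inside the gene as GENCODE draws it. Capitals mark letters that match a searched motif on either strand.
S100a8: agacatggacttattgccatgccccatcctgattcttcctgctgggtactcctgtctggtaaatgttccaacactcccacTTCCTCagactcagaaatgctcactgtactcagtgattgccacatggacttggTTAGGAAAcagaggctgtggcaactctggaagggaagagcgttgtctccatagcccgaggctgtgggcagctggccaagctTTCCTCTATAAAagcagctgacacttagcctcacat
S100a9: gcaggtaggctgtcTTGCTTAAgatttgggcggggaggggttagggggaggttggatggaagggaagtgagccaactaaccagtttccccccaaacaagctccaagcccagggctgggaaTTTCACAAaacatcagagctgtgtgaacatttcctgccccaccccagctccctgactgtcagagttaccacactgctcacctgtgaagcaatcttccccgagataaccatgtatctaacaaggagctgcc
Trem1: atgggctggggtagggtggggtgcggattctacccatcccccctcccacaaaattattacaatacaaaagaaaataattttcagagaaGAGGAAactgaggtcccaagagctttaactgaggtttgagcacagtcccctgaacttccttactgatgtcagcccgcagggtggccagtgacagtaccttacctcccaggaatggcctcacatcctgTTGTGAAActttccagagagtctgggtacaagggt
The motifs searched were a C/EBP core, TTNNGNAA, a PU.1 core, GAGGAA, the TATA box letters TATAAA, and 1 form of the NF-kappaB site, 10 letters long with 2 of them free. The core of the hypoxia response element was searched in both its forms, ACGTG and GCGTG. C/EBP factors and PU.1 drive much of the granulocyte programme, and the hypoxia response element is the letters that the hypoxia-inducible factors bind.

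The C/EBP core was found before 5 of the 6 genes, all but Cxcr2, and in 36.8% of the 32851 promoter windows of the same length. S100a9 held it at both places in capitals above, with its first letters 236 and 130 bases before the start. The PU.1 core was found before 5 genes, all but S100a9, and in 23.3% of all windows. In S100a8 a PU.1 core 36 bases before the start ran directly into the TATA letters, which 12.4% of all windows held and which Fpr2 held as well. Neither form of the hypoxia response element was found before any of the 6 genes (0 genes), against 16.6% of all windows for ACGTG and 28.2% for GCGTG. The NF-kappaB letters were found before 0 of the 6 genes and in 1.41% of all windows. These are matches of letters only, and no binding was measured. With 6 short windows of chosen genes, nothing is read from these counts, the absence of a motif included.

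**Figure D1:**
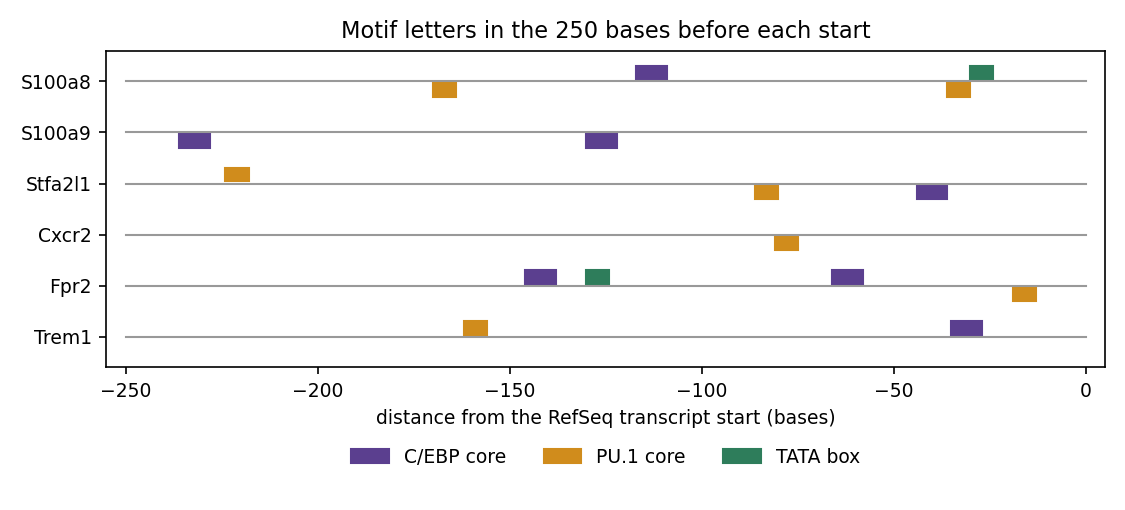
Motif letters in the 250 bases before the RefSeq start of each of the 6 genes, with distance from the start in bases on the x axis; boxes above a line are on the strand of the gene and boxes below it on the other strand. Of the 6 windows, 5 hold a C/EBP core and 5 a PU.1 core.

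In the uterus all 6 genes were listed and all 6 were higher under hypoxia. The authors' deposited table kept a gene only if its log2 fold change was 2 or more in either direction. Of 55450 annotated mouse genes, 1.63% were listed in the uterus and 0.885% were listed as higher there, and since the 6 were picked from that list, nothing is read from the count. The tables do not say which condition was divided by which, and positive values are taken here as higher in hypoxia. On that reading 54.4% of all listed uterus genes were higher, and on the opposite reading 45.6% were. They hold no levels and no read totals, so sequencing depth is unknown. Each deposited ratio, divided by a factor shared within the tissue, was a ratio of whole numbers, called terms here. The terms were read as read counts plus 1, which is an inference, and a common factor of both terms is lost, so the reads can be more than stated. The 95% intervals are exact Clopper-Pearson intervals from those reads and cover counting error only, not differences between animals. They do not allow for the threshold by which genes were listed, so the 95% may not hold for listed genes. In bulk tissue, more cells of a type and more RNA per cell cannot be told apart.

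The calprotectin genes had the most reads of the 6. S100a8 had 192 reads in the uterus hypoxia library and 38 in the uterus normoxia library. Its fold was 4.93, with a counting interval of 3.54 to 7.32, and its log2 fold change in the authors' deposited table was 2.30. S100a9 had 94 reads in hypoxia and 22 in normoxia. The hypoxia library was the higher one for both subunits. The S100a9 fold was 4.11, with an interval of 2.65 to 7.11 that overlapped that of S100a8. S100a9 stood at 2.04 in the authors' deposited table, the member closest to the threshold, and 1 more normoxia read would have taken it off the list. The same held for Stfa2l1 and Fpr2. Cxcr2 and ovary Trem1 would have needed 2 more, uterus Trem1 3 and S100a8 10. Both calprotectin genes were among the 31 genes listed as higher in the uterus with both terms of at least 20. By the sum of the terms, S100a8 ranked 22 and S100a9 ranked 36 among the 491 genes listed as higher. No 50-base window of either transcript (0 windows) occurs in a transcript of another gene.

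Stfa2l1, the protease inhibitor gene, had 7 reads in hypoxia and 0 in normoxia. Against 3 normoxia reads, the limit that a count of 0 allows, it was at least 2.32-fold higher, taking the 7 reads as exact. Its counting interval began at 1.43 and had no upper end. The log2 fold change of 2.99 in the authors' deposited table depends on the 1 added to each count, and 28 other uterus genes had the same ratio. Its transcript is nearly that of a neighbouring stefin gene, Stfa2, with 96.5% identity over 367 bases. Of its 50-base windows, 24.6% occur unchanged in a transcript of another gene, so reads could have been split or discarded in counting and the value is uncertain.

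The receptors had fewer reads than calprotectin. Cxcr2 had 30 reads in hypoxia and 5 in normoxia. Its fold was 5.14, with an interval of 2.29 to 19.7, and its log2 fold change in the authors' deposited table was 2.36. The hypoxia library was higher here too, by a ratio whose interval held those of both calprotectin genes. Of its 50-base windows, at least 4.07% occur in a transcript of another gene. Its transcript matched those of 1524 other genes, and the search kept a limited number of matches. The best match, to Gm16685, covered 17.7% of the Cxcr2 transcript at 86.5% identity. Fpr2 had 4 reads in hypoxia and 0 in normoxia, the smallest numbers that could be listed as higher, since terms of 4 to 1 gave a log2 value of 1.99. At the limit of 3 normoxia reads it was at least 1.33-fold higher if the 4 reads are taken as exact. With the error of those 4 reads included, the interval began at 0.657 and held a fold of 1. If a common factor of 2 was lost from the terms, the interval would begin at 1.24 and leave out 1. The 2.32 that the authors' deposited table gives for Fpr2 was shared by 99 other uterus genes. Fpr2 also overlaps the formyl peptide receptor gene Fpr3 on the same strand, and 37.2% of its 50-base windows occur in another gene's transcript, with 368 of the 403 shared windows in Gm5966.

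Trem1 was the member listed in both tissues, 1 of 61 such genes among the 1696 listed in either. In the uterus it had 18 reads in hypoxia and 1 in normoxia. The deposited fold was 9.46, which depends on the 1 added to each count. The reads alone gave 17.9, with a counting interval of 2.83 to 746, and a pseudocount of 5 gave a log2 value of 1.93, below that of S100a8 at 2.19. In the ovary Trem1 had 9 reads in hypoxia and 0 in normoxia. Against the limit of 3 reads it was at least 2.86-fold higher there, taking the 9 reads as exact, and its interval began at 1.88 with no upper end. The authors' deposited tables gave Trem1 3.24 in the uterus and 3.25 in the ovary, though either interval spans far more than that difference. The difference between the tissues was not tested, since each has 1 pooled library per condition. None of the 50-base windows of Trem1 (0 windows) occur in another gene's transcript. An annotated gene on the opposite strand, AC241601.2, overlaps Trem1, and the sources used here do not say whether counting used strand.

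**Figure D2:**
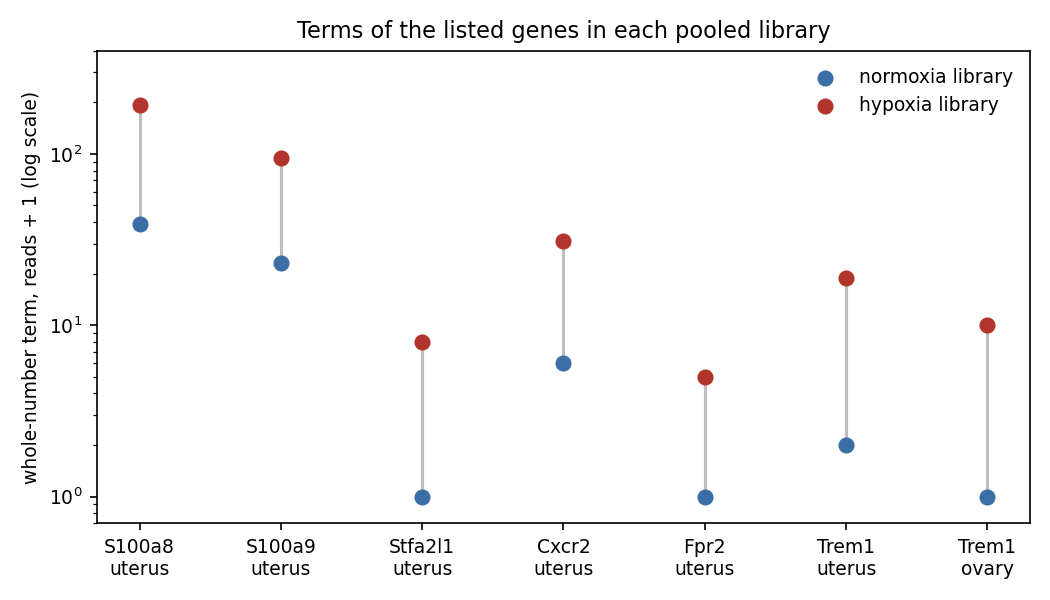
Terms (reads plus 1, log scale) of each listed gene in the hypoxia and normoxia libraries, 1 pooled library per point and no error bars. The calprotectin genes lie highest, at 193 and 39 for S100a8 and 95 and 23 for S100a9, while Stfa2l1, Fpr2 and ovary Trem1 have a normoxia term of 1.

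The other 5 genes were not in the ovary table (1 of 6 listed, against 1.54% of annotated genes listed and 0.781% listed as higher; 50.7% of listed ovary genes were higher, or 49.3% if the sign is turned). A gene is absent from it if its absolute log2 fold change was under 2, or if it was left out for another reason, and its level in the ovary is not known from these tables. With terms of 4 to 1 at a log2 value of 1.93 in the ovary, a gene with 0 normoxia reads needed at least 4 hypoxia reads to be listed as higher. The values of S100a8, S100a9, Stfa2l1, Cxcr2 and Fpr2 can therefore not be set beside their uterus values.

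Among the 6 uterus values, 5 had a counting interval that left out a fold of 1, Fpr2 being the exception. Over all 903 listed uterus genes the share was 54.2%. All listed genes passed the threshold, so whether an interval left out 1 depended mostly on the number of reads. The 6 were chosen with their values known, and nothing is read from this comparison. In the ovary the interval of Trem1 left out 1, as did 48.9% of all listed ovary genes. The median log2 fold change of the 6 was 2.34 in the authors' deposited table, against 2.58 over the 491 genes listed as higher and 2.50 over the 192 protein-coding ones. With genes at 0 normoxia reads set to their bounds, these medians were 2.17, 1.41 and 2.10. Such genes were 2 of the 6, 307 of the 491 and 89 of the 192, so the bounds lowered the medians unequally. Nothing is read from the order of the medians. The sum of the terms was 232 for S100a8 and 118 for S100a9, against a median of 8 over all listed uterus genes. For Stfa2l1 it was 9 and for Fpr2 it was 6, close to that median.

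**Figure D3:**
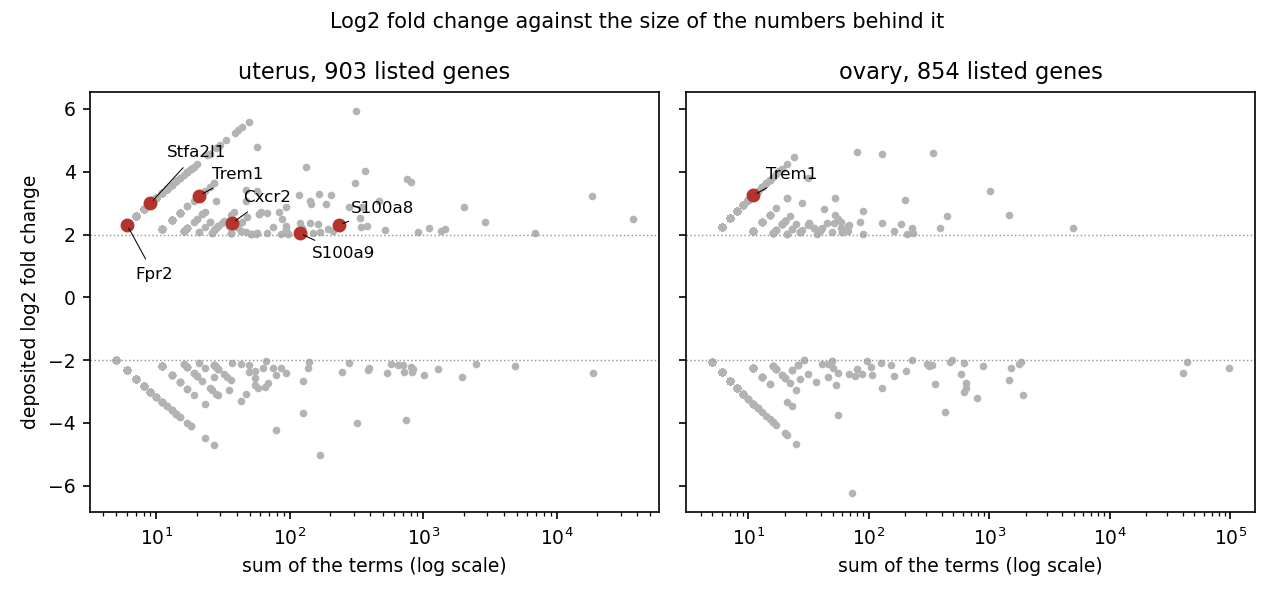
Deposited log2 fold change against the sum of the terms (log scale) for every listed gene, uterus on the left and ovary on the right, with the described genes in red and dotted lines at the threshold of 2. Fpr2 and Stfa2l1 lie on the steep edge formed by genes with a normoxia term of 1, and S100a8 and S100a9 lie close to the threshold with sums of 232 and 118.

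Of 36 further neutrophil markers, 3 were listed in the uterus, all as higher, and 33 were not. That is 8.33% of the markers, against 1.63% of all annotated genes. The marker lists were chosen with earlier results of these data known, so nothing is read from that share. The 3 were Lcn2 and Ltf, at 4.03 and 3.23 in the authors' deposited table, and Clec4d, a C-type lectin receptor of myeloid cells, at 2.01. Without Lcn2 and Ltf, which epithelium also makes, Clec4d was the only marker listed, 1 of the 22 surface and maturation markers. Clec4d had 68 reads in hypoxia and 16 in normoxia, a fold of 4.04 with an interval of 2.43 to 7.81. The unlisted markers included the surface protein gene Ly6g, the receptor gene Csf3r, and Mpo, Elane, Camp, Ngp and Mmp8, which encode granule proteins. The label of neutrophil genes can therefore not be checked against these defining markers, whose levels the tables do not give. None of the 36 was listed in the ovary (0 genes), which covers these chosen markers only. Other genes known from myeloid cells were listed there as lower, such as Nlrp12 at -2.79, Cd300ld3 at -2.57 and Sirpb1a at -2.88.

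The families of the 6 genes, for which the same 1.63% of all annotated genes is the background, held 3 further listed genes. Of 14 further S100 genes, 1 was listed, and it was lower. S100a3, known from hair follicle cells, had 4 reads in hypoxia and 23 in normoxia, and the authors' deposited table gave it -2.27. It lies within 250 kb of S100a8 and S100a9, in the same gene cluster. Of 9 further genes of the stefin A cluster and 6 further formyl peptide receptor genes, 0 were listed. Of 5 further TREM genes, 1 was listed, Treml1, a receptor of platelets. Treml1 had 7 reads in hypoxia and 0 in normoxia, the same numbers as Stfa2l1, and stood at 2.99 in the authors' deposited table. Of 20 further chemokine receptor genes, 1 was listed, Ccr7, which guides dendritic cells and T cells to lymph nodes. Ccr7 had 50 reads in hypoxia and 7 in normoxia, with an interval of 3.21 to 18.6 for its fold of 6.35.

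Genes for the partners of the 6 proteins showed 2 listed members with opposite signs in the uterus. Ppbp, 1 of 5 genes for ligands of CXCR2 and a platelet product, was lower, with 1 read in hypoxia and 8 in normoxia. Its log2 fold change in the authors' deposited table was -2.18, and its counting interval, normoxia over hypoxia, ran from 1.08 to 357. Saa3, 1 of 5 genes for ligands of FPR2 and an acute-phase protein gene, was higher in the uterus at 2.05 in the authors' deposited table. In the ovary the authors' deposited table gave Saa3 -2.64. None of the 5 calprotectin receptor genes, 5 genes for the ligand and signalling of TREM1, 6 cathepsin genes or 10 genes for neutrophil growth and recruitment cytokines was listed in either tissue (0 genes). Of 11 genes for adhesion of leukocytes to endothelium, 1 was listed. Over all annotated genes, the share listed was 1.63% for uterus and 1.54% for ovary. With partner lists this short, nothing is read from their counts, the absence of a gene included. The listed adhesion gene was Sele, which encodes the E-selectin on which neutrophils roll. Sele had 3 reads in hypoxia and 74 in normoxia in the uterus, and the authors' deposited table gave it -4.24.

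Markers of other blood cells were listed beside the 6 genes in the uterus. Of 14 B and plasma cell markers, 3 were listed, all as higher: Igkc, Jchain and Igha, with log2 fold changes of 2.19, 2.11 and 2.05 in the authors' deposited table. Of 10 dendritic cell markers, 2 were higher, Ccr7 and the chemokine gene Ccl17, which had 76 reads in hypoxia and 16 in normoxia. Of 9 red cell markers, 1 was listed, Slc4a1, on 4 reads in hypoxia and 0 in normoxia. Of 7 platelet markers, 2 were listed, Treml1 as higher and Ppbp as lower. None of the 16 monocyte and macrophage, 9 eosinophil, 10 mast cell and basophil, or 15 T and NK cell markers was listed in either tissue (0 genes). That count covers the chosen markers only. Other genes of such cells were in the uterus table, such as Themis of T cells and the macrophage elastase gene Mmp12, as higher, and the granzyme gene Gzmd, as lower. The ovary table held the NK cell receptor genes Klrb1a and Klrc2, as higher. The tables give no summed level for any of these lists, and the part that other cells had in the values of the 6 genes was not tested. Of all 233 other genes in the 24 lists, the uterus table held 14, of which 11 were higher and 3 lower. That is 6.01% of these genes, against 1.63% of all annotated genes. Since the lists were chosen with earlier results of these data known, nothing is read from such shares. In the ovary 2 were listed, 0.858% against 1.54% of all annotated genes. Both were lower, Saa3 and the aromatase gene Cyp19a1, a granulosa cell marker.

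**Figure D4:**
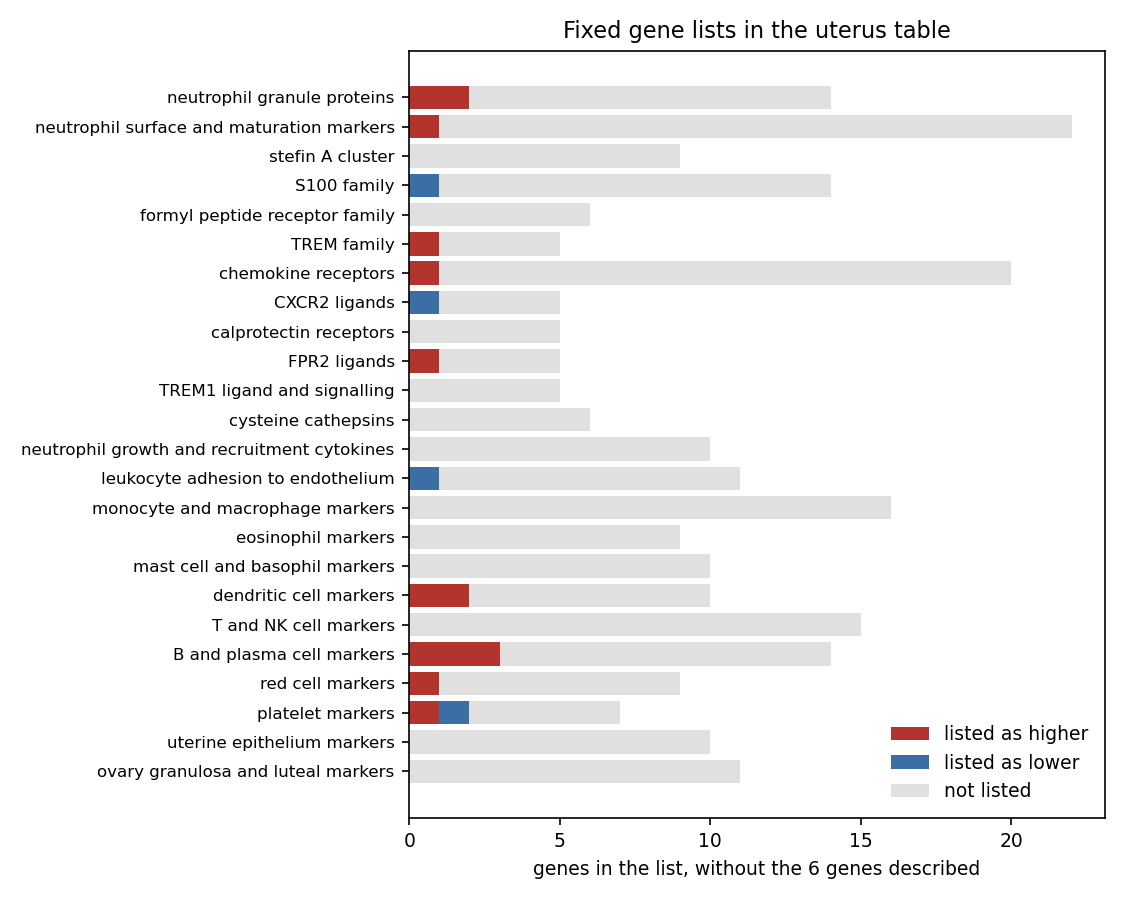
Number of genes of each fixed list (x axis) in the uterus table, leaving out the 6 genes described, by whether they were listed as higher, listed as lower or not listed. Most of each bar is unlisted, and the 36 neutrophil markers in the upper 2 bars hold 3 listed genes.

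**Figure D5:**
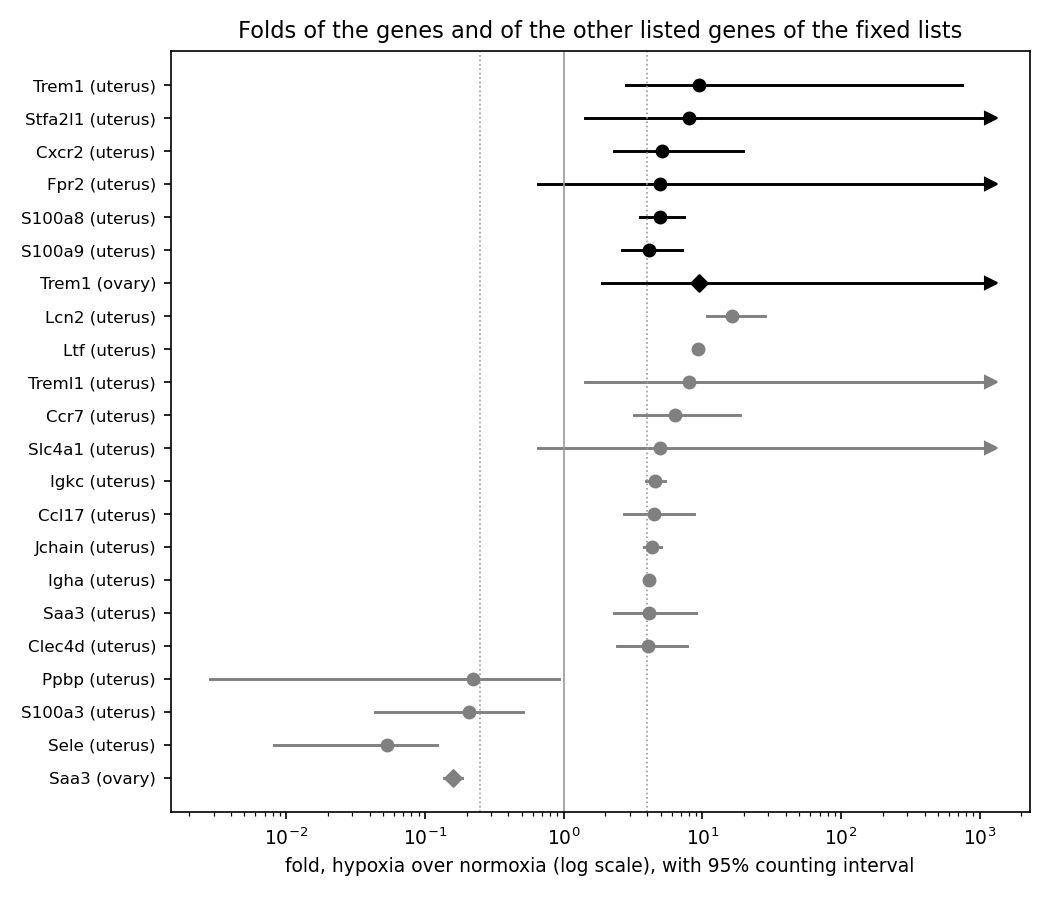
Fold of hypoxia over normoxia (log scale) with its 95% counting interval for the 6 genes (black) and the other listed genes of the lists (grey), circles for the uterus and diamonds for the ovary; an arrow marks an interval with no upper end, and Cyp19a1 is left out. Dotted lines mark a fold of 4 either way, and the intervals of Fpr2 and Slc4a1 cross a fold of 1.

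On GRCm38, the assembly that mm10 names, S100a8 lies on chromosome 3 from 90668978 to 90670035 on the plus strand and S100a9 from 90692632 to 90695721 on the minus strand, 22.6 kb apart. Cxcr2 lies on chromosome 1 from 74153989 to 74161246, and Stfa2l1 on chromosome 16 from 36156811 to 36161953. Fpr2 and Trem1 are both on chromosome 17, from 17887824 to 17893952 and from 48232768 to 48246924. Trem1 had 22 annotated genes within 250 kb, of which 2 were listed in the uterus, Treml1 and A530064D06Rik, both higher. The authors' deposited table gave A530064D06Rik 2.90, and its terms were 15 and 2. It shares sequence with Trem1, but no 50-base window of Trem1 was found in it. Fpr2 had 20 annotated genes within 250 kb, of which 2 were listed in the uterus, the microRNA genes Mir99b and Mir125a, both higher. The authors' deposited table gave Mir125a 2.39 on terms of 21 to 4, and Mir99b stood at the ratio of Fpr2 itself, 5 to 1, in both tissues. No gene within 250 kb of Cxcr2 (19 genes) or Stfa2l1 (35 genes) was listed in either tissue (0 genes). S100a8 had 28 annotated genes within 250 kb and S100a9 had 27. For each, 2 of them were in the uterus table, the other calprotectin gene as higher and S100a3 as lower. Over all annotated genes, the uterus table held 1.63%, and 0.885% were listed there as higher. Whether listed genes gather near the members was not tested.

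By log2 fold change, the uterus protein-coding gene nearest to Cxcr2 was Fmo4, with the same ratio, followed by Abcg5 and Ubd, at 2.36 and 2.37 in the authors' deposited table. Nearest to S100a9 were Myoc, Efcab8 and Saa3, between 2.04 and 2.05 in the authors' deposited table. Stfa2l1 shared its ratio with 8 other protein-coding genes and Fpr2 with 30, from which alphabetical order gave Acot12, Fat2 and Gm12728 for Stfa2l1, and 4930544D05Rik, Actrt3 and Ankdd1a for Fpr2. For S100a8 the same 3 genes were named by alphabetical order from 31 genes, Fpr2 among them, that tied at a distance of 0.015 log2 units. For Trem1 the distance was taken over both tissues, among 18 other protein-coding genes listed in both. Gm14419 was nearest at 0.84 log2 units, then Stoml3 at 0.84 and Cadps at 1.03. With 1 or 2 values per gene, such nearness describes the tables only.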

How the data were processed

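RNA from uterus and ovary was sequenced in 4 groups of 1 pooled library each. Per the labels' protocols, total RNA was extracted with ISOGEN II, polyadenylated RNA was captured and directional libraries were built. Tools named in the submitters' processing notes are HISAT2 2.2.1 and HTSeq 0.9.1, with FastQC 0.73 and DESeq2 2.11.40.7, and the build mm10, without saying how each was used. Per the file headers, the authors deposited for each tissue a log2 fold change per gene, and no smaller absolute value than 2.01 in the uterus or 2.00 in the ovary is present.

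The most frequent negative value of each tissue was read as terms of 1 to 4, which gave shared factors of 0.995 for the uterus and 0.952 for the ovary. All ratios then matched whole-number ratios within a relative tolerance of 5e-14. Intervals are exact Clopper-Pearson intervals at 95% of the terms less 1, turned into folds and multiplied by the factor. Because the contrast chose the members, no p-value was computed. Term recovery was tested on simulated data past the same threshold. Interval coverage was simulated only without the threshold, for a gene with more reads than most listed genes. Coverage for genes listed past the threshold was therefore not tested.

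The members, the 24 other lists, the motifs and the rule for named genes were chosen with earlier results of these data known. The rule took the 6 members, every listed gene of the neutrophil, family and partner lists, up to 4 listed genes of each other marker list, and the 3 protein-coding genes nearest in log2 fold change. Genes near a member by position, the nearest transcript by sequence and unlisted markers were named outside it, after their values were seen. So were Themis, Mmp12, Gzmd, Klrb1a, Klrc2, Nlrp12, Cd300ld3 and Sirpb1a. Of the list genes, Ahsp was not found in the annotation. Positions came from GENCODE M21 (GRCm38), matched by symbol and chromosome. Promoter windows came from RefSeq (GRCm38.p6), in which all 6 members were matched. Transcript likeness used BLAST 2.17.0 on GENCODE M21 transcripts. Scripts ran in Python 3.11.15 with SciPy 1.17.1, NumPy 2.4.6, pandas 2.3.3 and matplotlib 3.10.9.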

Additional observations from a re-analysis of the deposited data

Results flagged for a closer look

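Saa3, whose protein is a ligand of FPR2, was listed with opposite signs, since the authors' deposited tables gave 2.05 for uterus and -2.64 for ovary. The difference between the tissues was not tested. Its reads were 53 in hypoxia and 12 in normoxia in the uterus, and 208 and 1243 in the ovary.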

How the results depend on the processing

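With the threshold on the log2 fold change raised from 2 to 3, the members listed in the uterus dropped from 6 to 1, Trem1. At that threshold the other list genes dropped from 14 to 3 in the uterus, Lcn2, Ltf and Sele, and from 2 to 1 in the ovary, Cyp19a1, by construction of a stricter threshold. A sum of terms of at least 10 left 4 members in the uterus, without Fpr2 and Stfa2l1. With a pseudocount of 5 the log2 fold changes were 2.19 for S100a8, 1.87 for S100a9, 1.80 for Cxcr2, 1.26 for Stfa2l1, 0.84 for Fpr2, and 1.93 and 1.41 for uterus and ovary Trem1. Each of these was positive and inside its counting interval. Leaving out the shared factor moved no value by more than the 0.07 of ovary Trem1, from 3.25 to 3.32. The members whose uterus interval left out 1 numbered 5 with terms read as counts, 6 with both terms doubled, where Fpr2 joined with an interval from 1.24, and 4 with a 99% interval, without Stfa2l1. The Fpr2 call thus rests on the terms being in lowest form. No paired analysis was possible because each group is 1 pooled library, and for the same reason no replicate could be left out. The tables give no depth, so what the libraries could have detected below the threshold is not known.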
